A study of Mus musculus with 26 samples.

Results

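The genes on either side of Adipoq, which encodes the adipocyte hormone adiponectin, were followed in brown adipose tissue (BAT) of mice labelled as fat-specific Afadin knock-outs (FAKO) and of control littermates. The set held 8 genes of the 50686 listed, namely Ahsg, Fetub, Hrg, Kng2, Kng1, Eif4a2 and Rfc4 on one side of Adipoq and St6gal1 on the other. They were chosen by their position next to the gene whose promoter drove the Cre recombinase, and with the difference between FAKO and control mice already known for Kng1, Eif4a2 and Rfc4. That difference is therefore given here as a description, and where genes are counted by a false discovery rate in it the count supports nothing, while the response to cold within each label and the difference between these responses were tested. Of the 8 genes, 6 passed the filter on low counts, among 17286 genes in all, and Hrg and Ahsg did not.

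Kininogens, encoded by Kng1 and its paralogue Kng2, are plasma proteins made mainly by the liver. Plasma and tissue kallikreins cut them to release bradykinin-type peptides, which act on kinin receptors and are broken down by kininases. Kininogens, histidine-rich glycoprotein (Hrg), fetuin-B (Fetub) and fetuin-A (Ahsg) carry cystatin-type domains and form a gene cluster. Eif4a2 encodes an RNA helicase of the cap-binding complex that prepares mRNAs for translation, Rfc4 a subunit of the replication factor C that loads the sliding clamp onto DNA, and St6gal1 a sialyltransferase of the Golgi that caps N-glycans with sialic acid.

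The 26 mice were C57BL/6J males of 12 to 16 weeks. They were kept at thermoneutrality for 2 weeks, given as 30 °C in the sample labels and 29 °C in the methods, and a part of them was then moved to 5 °C for 6 h. There were 7 control and 7 FAKO mice at thermoneutrality, and 5 control and 7 FAKO mice at 5 °C. FAKO mice were bred from Adiponectin-Cre mice and mice with a floxed Afadin gene (Afdn, also named Mllt4), and the controls were littermates; whether the controls carried Cre or floxed alleles is not given in the sources used here. In mice labelled FAKO the Cre transgene, the floxed alleles and the loss of Afadin in adipocytes come together, so their parts in any difference between the labels cannot be told apart. Other cells of BAT do not make adiponectin and are not the cells this Cre targets.

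On mm10 chromosome 16, with GENCODE gene models, 7 of the genes start before Adipoq and St6gal1 after it. Adipoq (ENSMUSG00000022878.5) spans chr16:23146536-23158028 on the plus strand. Rfc4 (ENSMUSG00000022881.14, chr16:23113943-23127737, minus strand) starts 18.8 kb before it and Eif4a2 (ENSMUSG00000022884.14, chr16:23107444-23114136, plus strand) 39.1 kb before it. Their 3′ ends overlap by 194 exon bases on opposite strands. The library kit kept strand, but whether counting used it is not given in the sources used here, and 5.81% of the 100-base windows of Rfc4 transcripts also occur in Eif4a2 transcripts. Kng1 (ENSMUSG00000022875.17, chr16:23057865-23082078, plus strand) and Kng2 (ENSMUSG00000060459.13, chr16:22985854-23029482, minus strand) start 88.7 kb and 117.1 kb before Adipoq and are transcribed away from each other. They share 160 windows, which is 4.93% of those of Kng1 and 5.30% of those of Kng2, so reads from these stretches could be split between the kininogens. Hrg (ENSMUSG00000022877.8, chr16:22951072-22961656), Fetub (ENSMUSG00000022871.12, chr16:22918334-22939778) and Ahsg (ENSMUSG00000022868.5, chr16:22891277-22899449) start 195.5, 228.2 and 255.3 kb before it, all on the plus strand. St6gal1 (ENSMUSG00000022885.15, chr16:23224740-23360350, plus strand) starts 78.2 kb after the Adipoq start, with the antisense transcript B630019A10Rik (chr16:23175280-23224446) between them.

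The promoters of Kng2, Eif4a2 and Rfc4, which were higher in FAKO mice in at least 1 temperature, are printed beside that of Adipoq to show the sequence before their RefSeq starts. RefSeq (GRCm38.p6) held an entry for 7 of the 8 genes, and Kng1 had none. Each line holds the 250 bases before the RefSeq start, 5′ to 3′ on the gene's strand, from chr16:23029102-23029351 (Kng2, minus), chr16:23107218-23107467 (Eif4a2, plus), chr16:23127731-23127980 (Rfc4, minus) and chr16:23146286-23146535 (Adipoq, plus). Capitals mark matches on either strand to the TATA box TATAAA, the CCAAT box CCAAT, the GC box GGGCGG and the cAMP response element TGACGTCA or its part TGACG, which lies inside the full element.
Kng2: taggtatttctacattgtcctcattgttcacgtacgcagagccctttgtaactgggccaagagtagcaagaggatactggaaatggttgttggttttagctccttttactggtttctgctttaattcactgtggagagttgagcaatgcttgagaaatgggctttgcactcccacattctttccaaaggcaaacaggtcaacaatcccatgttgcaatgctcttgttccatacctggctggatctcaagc
Eif4a2: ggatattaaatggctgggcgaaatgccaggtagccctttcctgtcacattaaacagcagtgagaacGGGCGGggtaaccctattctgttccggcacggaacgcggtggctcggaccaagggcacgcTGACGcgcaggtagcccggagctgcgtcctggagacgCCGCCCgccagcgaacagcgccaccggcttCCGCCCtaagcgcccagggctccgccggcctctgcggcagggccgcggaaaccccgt
Rfc4: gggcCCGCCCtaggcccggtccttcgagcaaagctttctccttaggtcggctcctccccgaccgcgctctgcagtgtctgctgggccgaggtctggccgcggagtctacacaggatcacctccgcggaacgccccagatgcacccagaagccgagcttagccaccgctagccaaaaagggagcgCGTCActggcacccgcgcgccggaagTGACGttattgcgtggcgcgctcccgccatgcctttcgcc
Adipoq: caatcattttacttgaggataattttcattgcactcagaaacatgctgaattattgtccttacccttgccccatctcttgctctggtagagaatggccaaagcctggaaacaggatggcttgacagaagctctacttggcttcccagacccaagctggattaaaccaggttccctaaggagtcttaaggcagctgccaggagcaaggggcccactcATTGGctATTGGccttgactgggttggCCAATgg
The Eif4a2 promoter held 3 GC boxes and 1 TGACG, the Rfc4 promoter 1 GC box and 2 TGACG matches, and the Adipoq promoter 3 CCAAT boxes, while the Kng2 window held none of these letters. That Kng2 window lies inside the GENCODE Kng2 gene (chr16:22985854-23029482, minus strand), whose start is upstream of the RefSeq start. Its lack of matches therefore does not describe the sequence before the GENCODE start. Among the first promoters of 27025 genes, windows of the same length held TATAAA in 12.97%, CCAAT in 34.46%, GGGCGG in 32.94%, TGACGTCA in 1.62% and TGACG in 17.86%. The GC content was 44.4% for Kng2, 66.4% for Eif4a2, 67.2% for Rfc4 and 48.8% for Adipoq.

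Total counts ran from 12705969 to 25732258 per mouse, so 3 counts corresponded to 0.117 to 0.236 CPM, the unit that scales a count to the size of its library. Afdn was not lower in FAKO mice at thermoneutrality, with 154 to 231 CPM against 151 to 214 CPM in control mice, and was 53.3 to 65.3 against 67.9 to 79.2 CPM at 5 °C, a log2 difference of -0.33 that did not pass the threshold. Counts cover the whole gene, also outside any deleted part, and all RNA of the tissue. The 9 brown adipocyte markers summed to 6749 to 8390 CPM at thermoneutrality and 25244 to 31958 CPM at 5 °C. The 9 skeletal muscle markers varied from 0.815 to 7883 CPM between mice, within every group. In bulk tissue, fewer cells of a type and less RNA per cell cannot be told apart.

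**Figure D1:**
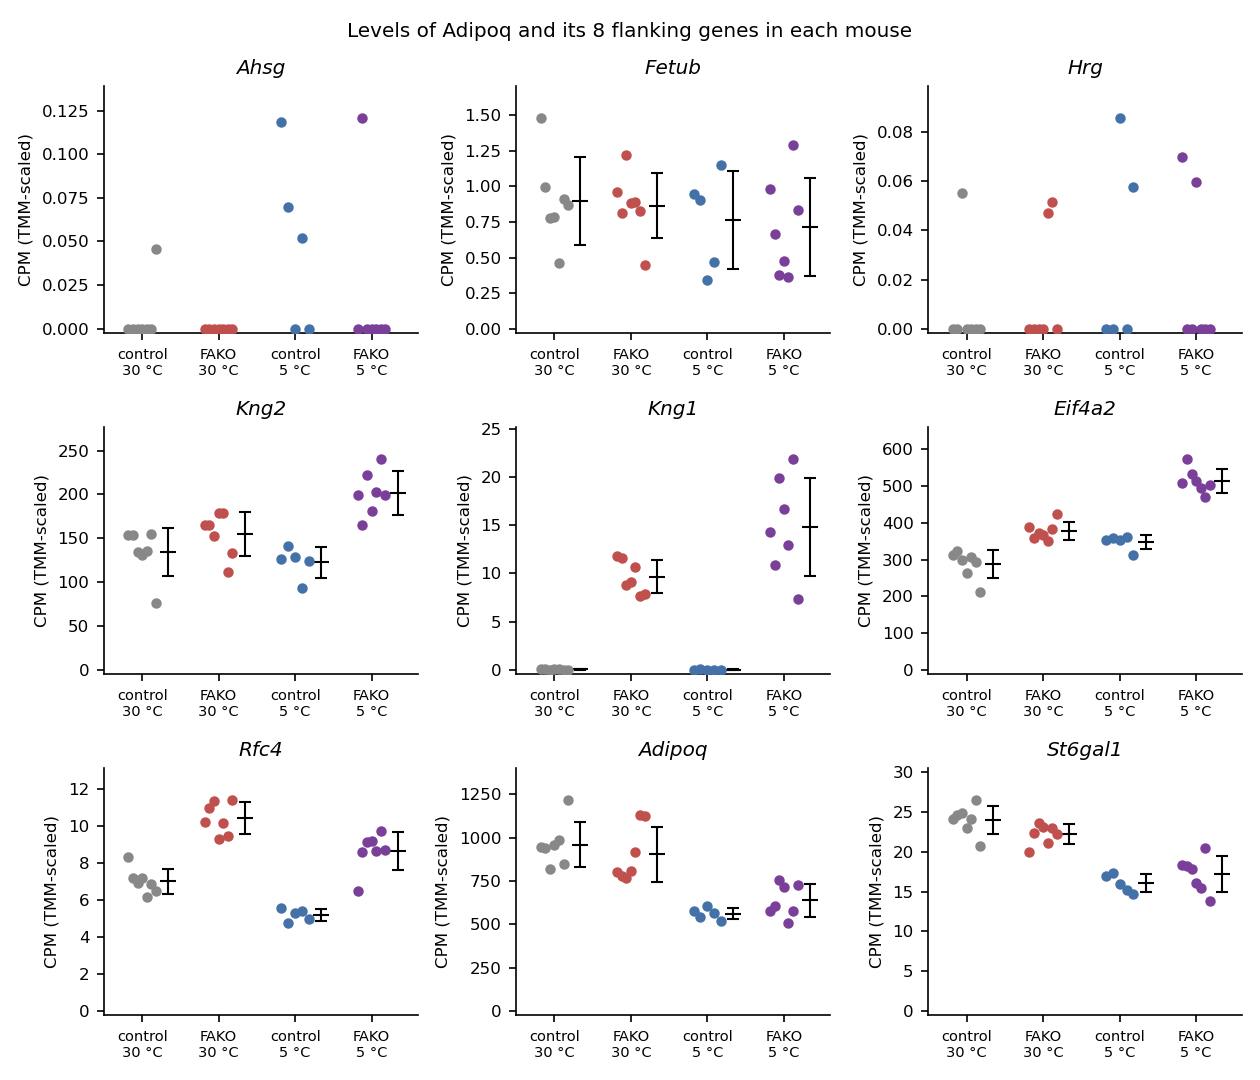
CPM, scaled by the trimmed mean of M values (TMM), for Adipoq and its 8 flanking genes, 1 point per mouse in the 4 groups, with each panel's linear axis starting at 0; the bar beside the points is the mean ± SD, left out for Ahsg and Hrg. Kng1 lies at or near 0 in every control mouse and between 7.35 and 21.9 CPM in every FAKO mouse, and Eif4a2 and Rfc4 are higher in FAKO than in control mice at each temperature.

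Kng1, which encodes a kininogen, was nearly absent from control BAT and present in every FAKO mouse. The 7 control mice at thermoneutrality had 1, 1, 0, 1, 1, 0 and 0 counts, and the 5 cold-exposed control mice had 0, 1, 0, 0 and 0. The 7 FAKO mice had 222, 229, 151, 155, 227, 148 and 158 counts at thermoneutrality, and 205, 179, 265, 280, 212, 389 and 123 at 5 °C. The groups were thus separated by a wide gap at both temperatures, and no control mouse exceeded 1 count. The level in FAKO mice was 9.65 ± 1.72 CPM (SD, n = 7) at thermoneutrality and 14.8 ± 5.07 CPM (SD, n = 7) at 5 °C. The ratio of the pooled levels was 287 (95% exact interval of the counts 112 to 1054) from 1290 against 4 counts at thermoneutrality, and 1346 (241 to 53192) from 1653 against 1 count at 5 °C. These intervals cover counting error only.

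Kng2, the second kininogen gene, was expressed in BAT of both labels and stood out in FAKO mice after cold exposure. At thermoneutrality the 7 control mice ran from 76.5 to 155 CPM (median 136) and the 7 FAKO mice from 112 to 179 CPM (median 165). The ranges overlapped, and control mouse 7 lay far below the other controls. In the cold, values were 126, 141, 128, 93.6 and 124 CPM in control mice and, for FAKO mice, 165 to 241 CPM (median 199.9). Every FAKO mouse was here above every control mouse. The log2 difference between FAKO and control mice was 0.21 (SE 0.13) at thermoneutrality, or 0.13 without control mouse 7, and 0.72 (SE 0.14) at 5 °C.

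Kng1 remained the minor kininogen in every FAKO mouse. Of the counts assigned to either gene, Kng1 took 4.87% to 6.70% (median 5.61%) in FAKO mice at thermoneutrality and 3.56% to 8.42% (median 6.69%) at 5 °C. In control mice the share did not exceed 0.0569%, and each 0 share rests on 1667 to 2985 kininogen counts. Per kilobase of exon, the FAKO level exceeded the control level of Kng1 by 2.96 CPM per kb (SE 0.200) at thermoneutrality and 4.56 (SE 0.589) at 5 °C. For Kng2 this excess was 7.53 CPM per kb (SE 5.13) and 28.8 (SE 4.48).

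**Figure D2:**
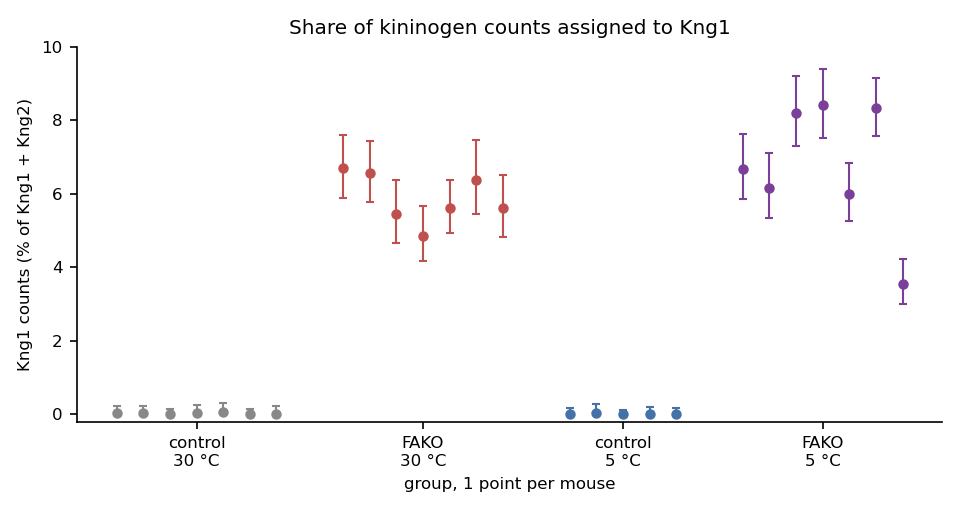
Kng1 counts as a percentage of the Kng1 and Kng2 counts together, 1 point per mouse with its 95% Wilson interval, which covers counting error only. FAKO mice lie between 3.56% and 8.42%, and control mice at or below 0.0569%.

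The liver-type neighbours beyond the kininogens were close to silent in all groups. Fetub, encoding fetuin-B, had 0.898 ± 0.308 CPM in control and 0.864 ± 0.229 in FAKO mice at thermoneutrality (SD, n = 7 each), and 0.764 ± 0.343 (n = 5) and 0.713 ± 0.345 (n = 7) at 5 °C. The ranges overlapped at both temperatures, with log2 differences of -0.07 (SE 0.29) and -0.06 (SE 0.33). Hrg summed to 1, 2, 3 and 2 counts and Ahsg, encoding fetuin-A, to 1, 0, 4 and 2 counts over the control and FAKO mice at thermoneutrality and at 5 °C, with no mouse above 2 counts. All of these single-mouse values lie below the 3 counts that a count of 0 allows, so no difference was detectable at this depth. The 12 hepatocyte markers, a list without any of these genes, summed to 1.02 to 2.64 CPM in control and 1.77 to 3.10 CPM in FAKO mice at thermoneutrality, and to 21.2 to 51.2 and 12.3 to 59.9 CPM at 5 °C. This sum was thus higher in every mouse at 5 °C than in any thermoneutral mouse, and which markers carry the rise is not given here. Only 3 of the 12 passed the filter, and Fgb was at 0 in all 4 groups. At thermoneutrality Fga and Cps1 were also at 0 in control mice, and Fga, Fgg, Ambp and Ttr in FAKO mice. At 5 °C Cps1 was at 0 in both labels and Ambp in FAKO mice.

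Eif4a2, encoding the translation helicase eIF4A2, was higher in FAKO mice at each temperature. The 7 control mice ran from 212 to 322 CPM (median 299.9) and the 7 FAKO mice from 352 to 424 CPM (median 372) at thermoneutrality. In the cold, control mice showed 353, 359, 354, 361 and 313 CPM and FAKO mice 469.7 to 574 CPM (median 508). No FAKO mouse overlapped with the control mice of its temperature. The log2 difference was 0.40 (SE 0.07) at thermoneutrality and 0.56 (SE 0.08) at 5 °C, and the excess per kilobase was 17.0 CPM per kb (SE 3.20) and 30.9 (SE 2.87). Of its transcript windows, 5.86% also occur in transcripts of other genes, with 2.09% in Gm2999.

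Rfc4, encoding a clamp loader subunit, showed a log2 difference of 0.57 (SE 0.08) at thermoneutrality and 0.73 (SE 0.09) at 5 °C. The 7 control mice ran from 6.18 to 8.31 CPM (median 6.92) and the 7 FAKO mice from 9.32 to 11.4 CPM (median 10.2) at thermoneutrality. After cold exposure, control mice showed 5.58, 4.74, 5.28, 5.40 and 4.95 CPM and FAKO mice 6.50 to 9.73 CPM (median 8.72). Again the labels did not overlap at either temperature, FAKO mouse 22 coming closest to the controls. The excess was 2.22 CPM per kb (SE 0.271) at thermoneutrality and 2.25 (SE 0.272) at 5 °C. Eif4a2 reads counted without strand over the 194 shared bases could enter Rfc4, and the part of this in the difference was not tested.

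St6gal1, on the other side of Adipoq, did not separate the labels. Its level was 24.0 ± 1.79 CPM in control and 22.2 ± 1.27 CPM in FAKO mice at thermoneutrality (SD, n = 7 each), and 16.0 ± 1.12 (n = 5) and 17.2 ± 2.25 (n = 7) at 5 °C. The ranges overlapped at both temperatures, being 14.7 to 17.3 CPM in control and 13.7 to 20.5 CPM in FAKO mice at 5 °C. The log2 differences were -0.11 (SE 0.07) and 0.10 (SE 0.08), the first being 0.04 when scaled by library size alone. Adipoq itself had log2 differences of -0.09 (SE 0.10), or 0.05 with library size alone, and 0.18 (SE 0.11), with overlapping ranges of 820 to 1220 against 767 to 1130 CPM and 518 to 607 against 506 to 754 CPM.

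As a description of the set, Kng1, Eif4a2 and Rfc4 lay below a false discovery rate of 0.05 at thermoneutrality and were higher in FAKO mice, where 0.0579% of all tested genes did so. At 5 °C Kng2 joined them, where 0.0463% of all tested genes did. The same genes were those with every FAKO mouse above every control mouse, 3 genes at thermoneutrality and 4 at 5 °C, against 0.174% and 0.33% of all tested genes. Because the set was chosen with these contrasts known, nothing is read from these counts. By the false discovery rate, Kng2 at 5 °C no longer passed with scaling by library size alone, without any 1 of the control mice 16, 17, 18, 19 and 21, or without FAKO mouse 24, 27 or 28.

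The other genes around Adipoq were set beside them. Within 1 Mb of the Adipoq start 66 genes are annotated, Adipoq included, of which 48 were in the table and 19 were tested. Of the 13 tested genes outside the set, 0 passed the false discovery rate between the labels at either temperature by edgeR's quasi-likelihood test. By that test 3 at thermoneutrality and 2 at 5 °C had an unadjusted p below 0.05. By DESeq2 1, Gm6493, passed at each temperature, among 48 and 197 genes called in all. By edgeR 0.0579% and 0.0463% of all tested genes passed as higher in FAKO mice. With shares this small, 0 of 13 does not show how far the label difference reaches around Adipoq. Gm6493, a processed pseudogene in an intron of Kng2 on the same strand, had 1.58 ± 0.660 against 3.20 ± 1.05 CPM in control and FAKO mice at thermoneutrality and 3.53 ± 0.546 against 6.42 ± 0.837 CPM at 5 °C (SD), a log2 difference of 1.03 and 0.86. Of its windows, 20.2% also occur in Tnpo1. For Gm6493 at 5 °C every FAKO mouse was above every control mouse (4.90 to 7.26 against 2.70 to 4.09 CPM), while the ranges overlapped at thermoneutrality. B630019A10Rik had 0.212 ± 0.190 against 0.564 ± 0.114 CPM and 0.0990 ± 0.047 against 0.422 ± 0.201 CPM, log2 differences of 1.44 and 2.01 with overlapping ranges and 0 to 14 counts per mouse.

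The other tested genes had the following log2 differences. At thermoneutrality and at 5 °C they were -0.12 and 0.14 for Tbccd1, -0.03 and -0.02 for Dnajb11, an endoplasmic reticulum chaperone, -0.04 and -0.00 for Dgkg, a diacylglycerol kinase, and -0.04 and 0.19 for Rtp4. The snoRNA Gm24616, within the Eif4a2 gene, gave 0.03 and 0.13, and BC106179, which overlaps St6gal1 on the opposite strand, 0.08 and 0.88 (SE 0.46). Beyond 500 kb, Bcl6, encoding a transcriptional repressor and starting 842.3 kb after Adipoq, was named after its values were seen. It had 95.4 against 57.3 CPM in control and FAKO mice at thermoneutrality and 81.8 against 69.0 CPM at 5 °C, log2 differences of -0.73 (SE 0.22) and -0.25 (SE 0.24). The other tested genes beyond 500 kb had -0.19 and 0.10 (Igf2bp2), 0.01 and -0.10 (Tra2b) and -0.05 and 0.02 (Etv5).

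**Figure D3:**
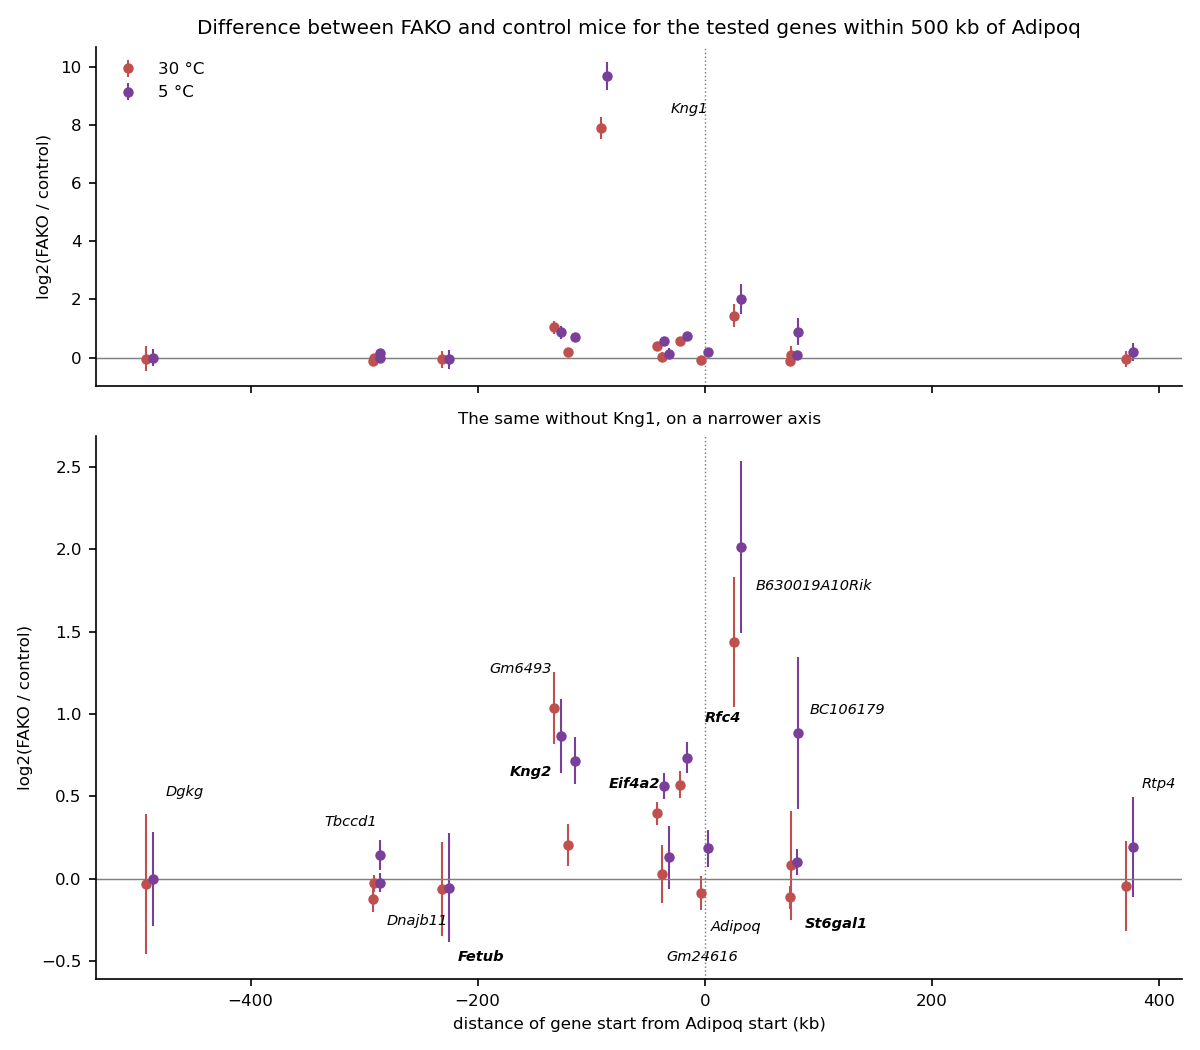
Log2 difference between FAKO and control mice (± SE) against the distance in kb from the Adipoq start for the 15 tested genes within 500 kb, at 30 °C and at 5 °C, drawn side by side for each gene; members of the set other than Kng1 are in bold. The upper panel shows Kng1 at 7.88 and 9.67, fitted values that depend on the few control counts, and the lower panel leaves Kng1 out, with Kng2, Eif4a2 and Rfc4 above 0 and Fetub, Adipoq and St6gal1 near 0.

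Per kilobase of exon, Eif4a2 and Kng2 led the 8 genes in every group, below Adipoq at 406 to 695 CPM per kb. Eif4a2 had 53.7 and Kng2 49.2 CPM per kb in control mice at thermoneutrality, with overlapping ranges of 39.7 to 60.4 and 28.0 to 56.8. In FAKO mice at thermoneutrality the means were 70.7 and 56.7, and the ranges of 65.9 to 79.5 and 41.0 to 65.6 did not overlap. Rfc4 and St6gal1 followed, at 4.58 and 4.88 CPM per kb in control mice with overlapping ranges, and at 6.80 and 4.51 in FAKO mice without overlap. In FAKO mice Kng1 stood below both at thermoneutrality, at 2.97 CPM per kb. At 5 °C its mean of 4.56 lay between those of Rfc4 (5.64) and St6gal1 (3.50), and its range of 2.26 to 6.73 took in those of both Rfc4 and St6gal1. Fetub stayed between 0.363 and 0.458 CPM per kb in the 4 groups.

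Cold exposure was tested within each label with edgeR (quasi-likelihood test), and p-values were adjusted by the Benjamini-Hochberg method over all 17286 genes. In control mice 1 of the 6 tested genes rose, Eif4a2, against 31.6% of all genes, and 2 fell, Rfc4 and St6gal1, against 33.4%. Kng1, with 0 or 1 count per control mouse, passed the filter through the FAKO mice alone. It could not be called in control mice, which leaves 5 genes there. In FAKO mice 3 rose, Kng1, Kng2 and Eif4a2, against 33.7%, and the same Rfc4 and St6gal1 fell, against 34.9%. With so few genes these counts are near the shares over all genes, and nothing further is read from them. The median log2 change of all tested genes was -0.01 in control and -0.03 in FAKO mice.

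Eif4a2 rose by a log2 change of 0.28 (SE 0.08, adjusted p = 0.00255) in control and 0.44 (SE 0.07, adjusted p = 4.16e-06) in FAKO mice. In FAKO mice every cold-exposed animal was above every thermoneutral animal, while the control ranges overlapped. Rfc4 had a log2 change of -0.43 (SE 0.09, adjusted p = 0.000202) in control and -0.27 (SE 0.08, adjusted p = 0.00498) in FAKO mice. St6gal1 had -0.58 (SE 0.08, adjusted p = 3.86e-07) and -0.37 (SE 0.07, adjusted p = 5.84e-05). For both genes the control groups did not overlap, and the FAKO groups did.

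The kininogen genes rose with cold in FAKO mice. Kng1 rose by a log2 change of 0.62 (SE 0.19, adjusted p = 0.00572), with overlapping ranges of 7.64 to 11.8 and 7.35 to 21.9 CPM. Kng2 rose by 0.38 (SE 0.13, adjusted p = 0.0107), again with overlap. In control mice Kng2 had a log2 change of -0.13 (SE 0.14, adjusted p = 0.421), and Kng1 with 0 or 1 count per mouse gave no interpretable change. Fetub had -0.27 (SE 0.32, adjusted p = 0.479) in control and -0.26 (SE 0.29, adjusted p = 0.444) in FAKO mice. Adipoq, for comparison, fell in both, with log2 changes of -0.77 (SE 0.12, adjusted p = 1.68e-06) and -0.50 (SE 0.10, adjusted p = 0.000119).

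These rises depended on the scaling. With library size alone the median of all genes moved to -0.14 in control and -0.34 in FAKO mice, and Kng1 at 0.26 (adjusted p = 0.216), Kng2 at 0.06 (adjusted p = 0.680) and Eif4a2 at 0.12 (adjusted p = 0.182) in FAKO mice and 0.17 (adjusted p = 0.107) in control mice no longer passed, while Rfc4 and St6gal1 fell under every scaling tried. Measured from the shifted median the 3 genes were higher, but this centres on all genes much as TMM does. It is therefore no separate support for the rises.

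**Figure D4:**
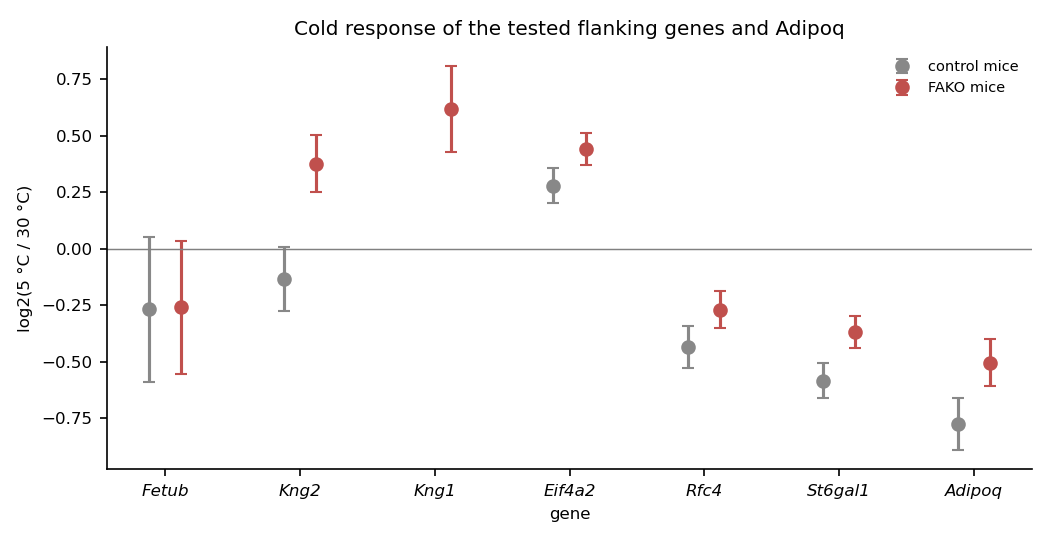
Log2 change from 30 °C to 5 °C (± SE) of the tested flanking genes and Adipoq in control and FAKO mice; Kng1 is drawn for FAKO mice alone, since control mice had 0 or 1 count. Eif4a2 lies above 0 and Rfc4, St6gal1 and Adipoq below 0 in both labels, whereas Kng2 lies above 0 in FAKO mice and close to 0 in control mice.

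Whether cold acted differently in the labels was examined by an interaction term. By edgeR 0 of the 6 genes passed the false discovery rate, against 1.16% of all tested genes, 1 had an unadjusted p below 0.05, and DESeq2 called 0. That gene was Kng2, whose cold response was larger in FAKO than in control mice by 0.51 on the log2 scale (SE 0.19, adjusted p = 0.177). Without control mouse 7 the difference was 0.60 and its adjusted p 0.0328, so that 1 mouse decides this call. The differences of Eif4a2 (0.16, SE 0.11, adjusted p = 0.463), Rfc4 (0.16, SE 0.12, adjusted p = 0.541) and St6gal1 (0.21, SE 0.11, adjusted p = 0.319) did not pass, and those of Eif4a2 and Rfc4 turned to -0.04 each with library size alone. For Kng1 the difference was 1.79 (SE 1.20, adjusted p = 0.481 by edgeR). With 0 or 1 Kng1 count per control mouse the test could not decide, so its not passing is not read as a lack of difference.

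Among FAKO mice, Kng1, Eif4a2 and Rfc4 were compared in pairs, mouse by mouse within each temperature, giving 6 relations in all over 7 mice each. At thermoneutrality Kng1 and Eif4a2 had Pearson's r = -0.52 and Spearman's rho = -0.36 (exact permutation p = 0.222 and 0.444), Kng1 and Rfc4 r = 0.06 and rho = -0.04 (p = 0.886 and 0.963), and Eif4a2 and Rfc4 r = 0.33 and rho = 0.39 (p = 0.498 and 0.396). At 5 °C the values were r = -0.27 and rho = -0.18 (p = 0.556 and 0.713), r = 0.25 and rho = 0.64 (p = 0.525 and 0.139), and r = -0.14 and rho = -0.32 (p = 0.600 and 0.498) in the same order, also by the exact permutation test. After Benjamini-Hochberg adjustment the smallest permutation p was 0.720 for r and 0.746 for rho. Leaving out the 2 mice farthest from the median of the first gene gave r = -0.78, -0.12 and -0.30 at thermoneutrality and -0.32, 0.24 and 0.21 at 5 °C. No relation between the genes across mice was detectable with 7 mice.

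Genes with the most similar pattern were found as those with the smallest root-mean-square difference of standardised log2 CPM over the 26 mice, among genes with a mean of at least 1 CPM. The 26 mice include both labels, so the label difference known when the set was chosen enters this measure. Nothing is read from members of the set lying close to each other in it. For Kng1 these were Gm11868, Rfc4 and Eif4a2, at 0.303, 0.627 and 0.684. Gm11868 is not among the genes annotated within 1 Mb of Adipoq. Gm11868 had 0.179 ± 0.137 and 0.295 ± 0.106 CPM in control mice and 3.07 ± 0.311 and 4.11 ± 0.795 CPM in FAKO mice at thermoneutrality and 5 °C (SD). For Rfc4 they were Kng1, Gm11868 and Gm38315, at 0.627, 0.707 and 0.780, and for Eif4a2 the genes 2900052N01Rik, Gm11868 and Bckdhb, at 0.599, 0.618 and 0.625. Bckdhb, a subunit of the branched-chain keto acid dehydrogenase, had 65.6, 82.7, 112 and 124 CPM in control and FAKO mice at thermoneutrality and in control and FAKO mice at 5 °C. For St6gal1 they were Stk3, Grb14 and Prelid2, at 0.333, 0.333 and 0.356, all of them lower at 5 °C in both labels by their group means.

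The partners of these proteins were looked up in the same label contrasts. Over the 5 lists drawn up around them, 56 genes outside the set were tested. Of these, 0 passed between the labels at either temperature by edgeR or by DESeq2. By edgeR, 5 at thermoneutrality and 8 at 5 °C had an unadjusted p below 0.05, a share not given here for all genes. Of all 17286 tested genes, 0.0579% and 0.0463% passed by edgeR as higher in FAKO mice at these temperatures. DESeq2 called 48 and 197 genes in either direction. At shares this small, 0 is near what any list of this size would give, and nothing is read from it. Among the 16 other genes of the cap-binding complex and its regulators the log2 label difference ran from -0.33 to 0.02 at thermoneutrality and -0.02 to 0.38 at 5 °C. Among the 12 other genes of replication factor C and its clamps it ran from -0.14 to 0.06 and from -0.20 to 0.26. Among the 13 other sialyltransferases it ran from -0.51 to 0.26 and from -0.08 to 0.33. Among the 11 other kallikrein-kinin genes it ran from -0.32 to 0.25 and from -0.20 to 0.24, and among the 4 other cystatins from -0.14 to 0.32 and from -0.10 to 0.59, the last being Cst6 (SE 0.52). Whether these differences differ from those of the flanking genes was not tested.

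**Figure D5:**
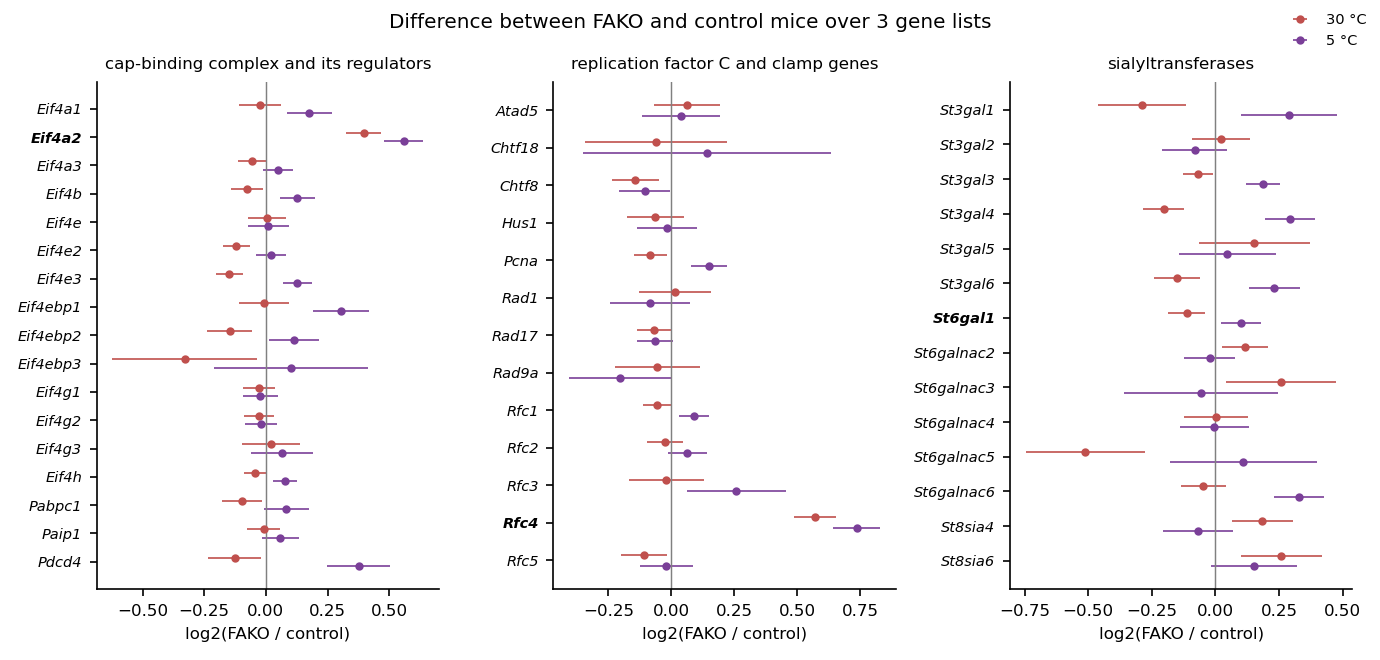
Log2 difference between FAKO and control mice (± SE) at 30 °C and 5 °C for every tested gene of the cap-binding complex and its regulators, of replication factor C and its clamps, and of the sialyltransferases, with the flanking gene of each list in bold. Eif4a2 at 0.40 and 0.56 and Rfc4 at 0.57 and 0.73 lie to the right of the other genes of their lists, and St6gal1 at -0.11 and 0.10 lies among its list.

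The cold responses of these lists are set beside those of all genes, of which 31.6% rose and 33.4% fell in control mice and 33.7% rose and 34.9% fell in FAKO mice, and no enrichment was tested. For the difference of cold responses 0 of the 56 list genes outside the set passed by edgeR, against 1.16% of all tested genes. DESeq2 called 2 of them, among 488 genes in all. Unequal splits in control and FAKO mice are therefore not read as a difference between the labels. Of the 17 cap-binding genes, all tested, 10 rose and 4 fell in control mice and 11 rose and 3 fell in FAKO mice, with medians of 0.26 and 0.44 against -0.01 and -0.03 over all genes. With library size alone the split became 6 and 5 in control and 5 and 5 in FAKO mice. Eif4g2, a scaffold protein related to eIF4G, rose by 1.34 in each label on the log2 scale, Eif4g3 by 1.08 and 1.12, and Eif4a1, the close paralogue of Eif4a2, by 1.02 and 1.22. Pdcd4, which binds and inhibits eIF4A, had log2 changes of -2.62 and -2.11, and Eif4ebp1, which sequesters eIF4E, -1.21 and -0.89.

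Of the 14 replication factor C and clamp genes 13 were tested, and 2 rose and 7 fell in control and 3 rose and 7 fell in FAKO mice, with medians of -0.33 and -0.24. Chtf18, a subunit of an alternative clamp loader, had log2 changes of -2.67 and -2.46, and Rfc3, another subunit of replication factor C, -2.05 and -1.77. Rad17, which loads the DNA damage checkpoint clamp, rose by 1.13 in each label, and Hus1 of that clamp by 0.67 and 0.72. Rfc4 was among the 7 that fell in each label.

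Of the 20 sialyltransferases 14 were tested, and 2 rose and 10 fell in control and 4 rose and 10 fell in FAKO mice, with medians of -0.60 and -0.44. St3gal5, which makes the ganglioside GM3, rose by 5.33 and 5.22 on the log2 scale, from 3.16 to 129 CPM in control mice and from 3.57 to 133 CPM in FAKO mice. St8sia6 rose by 0.92 and 0.81, and St3gal1 by 0.89 in FAKO mice, having 0.31 (adjusted p = 0.152 by edgeR) in control mice. St3gal4 had log2 changes of -2.31 and -1.81 and St6galnac3 -1.82 and -2.13. St6gal1 was among the 10 that fell in each label.

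Of the 20 kallikrein-kinin genes 13 were tested, the kininogens among them, and 3 rose and 4 fell in control and 7 rose and 4 fell in FAKO mice. For the difference of cold responses 0 of the 13 passed by edgeR. Over the 12 genes without Kng1 the medians were -0.11 in control and 0.29 in FAKO mice. With Kng1 the FAKO median over 13 genes was 0.38. With library size alone the split in FAKO mice became 3 and 5. Cpm, a membrane carboxypeptidase that trims kinins, rose by 1.73 and 1.43 on the log2 scale, and Xpnpep1, an aminopeptidase that cleaves bradykinin, by 1.10 and 1.02. Prcp, a prolylcarboxypeptidase, had log2 changes of -0.98 and -1.12, and Cpd, a carboxypeptidase, -0.64 and -0.53.

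Of the 9 genes of the cystatin superfamily 7 were tested, 3 of them members of the set. In control mice 1 rose and 1 fell, and in FAKO mice 5 rose and 0 fell. By edgeR 0 of the 7 passed for the difference of cold responses. Leaving out Kng1 with its 0 or 1 count in control mice, the median log2 change over 6 genes was 0.01 in control and 0.40 in FAKO mice. With Kng1 the FAKO median over 7 genes was 0.43. With library size alone 2 rose and 1 fell in FAKO mice. Cst7, encoding cystatin F of immune cells, rose by 3.80 and 3.38 on the log2 scale, from 1.04 to 14.8 CPM in control mice and from 1.30 to 13.7 CPM in FAKO mice. The 5 macrophage markers summed to 98.1 to 159 CPM at thermoneutrality and 122 to 212 CPM at 5 °C, and their part in the Cst7 result was not tested. Cst6 rose by 1.71 in FAKO mice, with 1.27 (adjusted p = 0.0679 by edgeR) in control mice, and Cst3, encoding cystatin C, had -0.21 (adjusted p = 0.0250) in control mice and 0.02 (adjusted p = 0.809) in FAKO mice.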

How the data were processed

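The authors sequenced stranded total RNA of BAT from 26 mice, aligned reads to mm10 with STAR 2.5.2b and deposited featureCounts 1.5.2 gene counts for 50686 genes, which are raw read counts per gene (annotation GENCODE M13 per their methods; M21 models gave positions and exon lengths here). Strand and multi-mapping settings were not given in the sources used here. The counts of all 4 groups were fitted together with edgeR 4.0.16 in R 4.3.3 (filterByExpr, TMM, quasi-likelihood test, Benjamini-Hochberg threshold 0.05), with 17286 genes tested. CPM were scaled by TMM factors of 0.759 to 1.29. Log2 values for relations and similarity used a prior count of 2. Each sample is a mouse of its own, and no samples of a group agreed within sampling noise (73 pairs).

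The members and the gene lists were chosen with earlier results of these data known. Named genes were the members, Adipoq, Afdn, every tested gene within 500 kb of Adipoq, at most 2 list genes in each direction with the largest cold responses, and the 3 genes most alike to Kng1, Eif4a2, Rfc4 and St6gal1. Gm2999 and Tnpo1 were named for shared sequence and Bcl6 after its values were seen. Igf2bp2, Tra2b and Etv5 were named beside Bcl6 as the other tested genes beyond 500 kb. Relations used exact permutation tests (scipy 1.17.1). Alternatives were DESeq2 1.42.0, other scalings, filters and leaving out each mouse. Scripts were tested on simulated data. Promoters were taken from RefSeq (GRCm38.p6).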

Additional observations from a re-analysis of the deposited data

Results flagged for a closer look

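Over 30 groups of 5 or 7 mice, 5 held a mouse far from the others of its group by Dixon's criterion, which chance alone meets in about 1 group in 20. Control mouse 7 at thermoneutrality accounted for 3 of them: it had 76.5 CPM of Kng2 where the others had 131 to 155 CPM, 1220 CPM of Adipoq where the others had 820 to 986 CPM, and 151 CPM of Afdn where the others had 194 to 214 CPM. Mouse 7 had the highest TMM factor, 1.29, and the 3 flags share it. With library size alone its Afdn was 196 CPM, within the 181 to 213 CPM of the other controls. Its Kng2 was then 98.8 CPM against 123 to 158 CPM, and its Adipoq 1575 CPM against 812 to 1006 CPM. Control mouse 21 at 5 °C had 313 CPM of Eif4a2 where the others had 353 to 361 CPM. FAKO mouse 22 at 5 °C had 6.50 CPM of Rfc4 where the others had 8.59 to 9.73 CPM.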

How the results depend on the processing

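The label differences of Kng1, Kng2, Eif4a2 and Rfc4 kept their direction under each alternative run, while those of St6gal1 and Adipoq at thermoneutrality changed sign with library size alone (0.04 and 0.05) and that of Fetub, near 0, changed sign under several. With library size alone 2 rather than 5 members passed in the cold response of FAKO mice, where the median of all genes moved to -0.34, and with upper-quartile factors Kng2 did not pass (0.22). The number of genes past the threshold between the labels at thermoneutrality was 14, against 48 with DESeq2, 34 with library size alone, 9 without a filter and 7 to 93 when leaving out each mouse, the highest without control mouse 7. At 5 °C it was 24, against 197 with DESeq2, 5 with library size alone, 15 without a filter, 45 with at least 10 counts in every mouse, 9 with the compared groups fitted alone and 7 to 100 when leaving out each mouse, the highest without FAKO mouse 22. For the difference of cold responses it was 200, against 488 with DESeq2, 27 without a filter and 49 to 371 when leaving out each mouse, the highest without control mouse 7, and 0 to 1 of the members passed, Kng2 doing so without that mouse. This difference turned to -0.0442 for Eif4a2 and -0.0438 for Rfc4 with library size alone, and for Fetub (main value 0.01) to -0.18 with library size alone, -0.0475 with upper-quartile factors and -0.21 to 0.22 when leaving out each mouse. Correlations in FAKO mice changed sign with library size alone for Kng1 with Eif4a2 at thermoneutrality (r = 0.27) and, at 5 °C, for Kng1 with Rfc4 (r = -0.18) and Eif4a2 with Rfc4 (r = 0.35). They did so without the 2 farthest mice for Kng1 with Rfc4 (r = -0.12) and Eif4a2 with Rfc4 (r = -0.30) at thermoneutrality and Eif4a2 with Rfc4 at 5 °C (r = 0.21). The cause was not tested. No paired analysis was possible because each mouse has a number of its own that no other group shares. At 3 counts or fewer per mouse, Hrg, Ahsg and Kng1 in control mice are limited by depth.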
